A study of Mus musculus with 16 samples.

Results

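The subunits of oxidative phosphorylation were followed in sorted bone marrow progenitors of URE mice and WT littermates. Many nuclear-encoded subunits were more abundant in granulocyte-macrophage progenitors (GMP) than in the earlier LSK cells, in both genotypes. Of 93 subunits tested, 44 were higher in GMP in WT mice, where 12.8% of all genes were, and 35 of 92 in URE mice, where 9.65% of all genes were, and none of the 13 subunits encoded by mitochondrial DNA passed that test. In a fit that blocked on the replicate number the counts were 73 and 65, against 25.2% and 17.1% of all genes, and then 1 mitochondrial subunit was higher and 1 lower in WT and 1 was higher in URE. Between genotypes at the same stage, 1 subunit passed the unblocked test in LSK, Cox6a2, and 2 in GMP, Cox4i2 and Sdhb, and each was lower in URE mice, as were 3.76% and 3.68% of all genes. Cox6a2 in LSK and Cox4i2 in GMP passed the filter on low counts only through the WT libraries. No conclusion is drawn from their calls. Members were taken by gene symbol, as nuclear genes named Nduf, Sdh, Uqcr, Cox or Atp5 for a structural subunit and as mitochondrial genes named mt-Nd, mt-Co, mt-Cytb or mt-Atp, with pseudogene names left out. This gave 100 of the 54347 genes measured, 87 nuclear and 13 mitochondrial. By complex, 46 belonged to complex I, 4 to complex II, 9 to complex III, 21 to complex IV and 20 to complex V. The rule used names and no measured value, and 7 members with at most 5 counts over all 16 libraries were tested in no comparison (Ndufa11b, Ndufs6b, Cox6c2, Cox7b2, Cox8b, Cox8c and a second gene listed as Atp5o).

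Oxidative phosphorylation takes place in the inner mitochondrial membrane. Complexes I (NADH dehydrogenase) and II (succinate dehydrogenase) pass electrons to ubiquinone, complex III hands them to cytochrome c, complex IV (cytochrome c oxidase) gives them to oxygen, and complex V (ATP synthase) makes ATP from the proton gradient that complexes I, III and IV build. Subunits of all but complex II come from both genomes, so that nuclear and mitochondrial transcripts supply the same machine. Blood stem cells are known to rely little on this pathway while at rest, and myeloid progenitors to use it more.

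URE mice carry a germline deletion of the upstream regulatory element of Spi1, the enhancer of the gene for the transcription factor PU.1, and the WT mice were littermates on the C57BL/6 background. All mice were 8 to 12 weeks old, and their bone marrow was enriched for c-Kit-positive cells before sorting. LSK cells were sorted as lineage-negative, Sca-1-positive and c-Kit-positive, and GMP as lineage-negative, Sca-1-negative, c-Kit-positive and CD16/32-positive. There were 4 mice in each of the 4 groups (WT LSK, URE LSK, WT GMP and URE GMP), and each library was a bulk polyA RNA-seq library from at most 10 ng of RNA. Every cell type of these mice carries the deletion. In bulk RNA, fewer cells of a type and less RNA per cell cannot be told apart.

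Spi1 was lower in every URE library. It averaged 124 CPM (counts scaled to a common library size with TMM factors) ± 40.0 (SD, n = 4) in WT LSK and 3.02 ± 1.42 in URE LSK, and 140 ± 40.6 in WT GMP against 21.3 ± 5.97 in URE GMP (log2 fold changes of -5.39 and -2.73, edgeR adjusted p = 2.7e-04 and 9.5e-04). Total counts ran from 20028302 to 29128858 per library. The stage markers followed the labels in both genotypes: Ly6a, which encodes Sca-1, averaged 91.8 and 61.4 CPM in WT and URE LSK and 2.25 and 1.36 CPM in the GMP groups, and Mpo, the azurophil granule peroxidase, rose from 981 and 813 to 50523 and 91802 CPM. Summed levels of markers of other cell types differed between genotypes. The 7 monocyte and dendritic cell markers summed to 195 to 377 CPM in WT LSK and 48.2 to 111 CPM in URE LSK, and to 612 to 947 CPM in WT GMP and 49.97 to 237 CPM in URE GMP, with all 6 of those tested lower in URE GMP. The 7 neutrophil markers summed to 52.3 to 156 CPM in WT GMP and 245 to 1014 CPM in URE GMP, and the 12 erythroid markers to 1180 to 1873 CPM in WT LSK and 2214 to 2644 CPM in URE LSK. The single erythroid markers went both ways in LSK, with log2 fold changes of URE over WT from -4.54 to 2.41. Of the 12, 7 were positive, 0 were called higher in URE and 1 was called lower. The 8 B cell markers summed to 63.3 to 91.1 CPM in WT GMP and 11.9 to 27.3 CPM in URE GMP, and the 8 T and NK cell markers to 564 to 978 and 1353 to 2228 CPM. In the T and NK cell list Nkg7, which encodes a granule protein, was higher in URE GMP (1.07 on the log2 scale, edgeR adjusted p = 0.0169), Il7r was lower, and 4 of the 8 genes in WT GMP and 3 in URE GMP had at most 3 counts over the group. The part of these differences in the subunit results below was not tested.

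Per transcript length, the mitochondrial members of complexes III, IV and V were more abundant than most nuclear members. Those of complex I varied, with a median below that of all nuclear members (226) and mt-Nd1 at 854 CPM per kb. In CPM per kilobase of coding transcript, averaged over all 16 libraries, mt-Cytb of complex III was at 3407 and the mitochondrial members of complexes IV and V had medians of 1354 and 3522. The 7 mitochondrial members of complex I had a median of 194, beside 176 for the nuclear members of complex I and 228 to 327 for those of complexes II to V. The highest mitochondrial level was that of mt-Atp6 (5614) and the lowest that of mt-Nd3 (25.3), and the highest nuclear level, that of Uqcrc1, was above that of mt-Co3 (1605). In polyA libraries the level of a mitochondrial transcript also depends on its tail and on reads that go to copies of mitochondrial DNA in the nuclear genome, so that the order among mitochondrial genes is uncertain. Among the nuclear members the highest level per kilobase in each complex was held by Ndufa4 (822) in complex I, Sdha, the flavoprotein of complex II (360), Uqcrc1, a core protein of complex III (1663), Cox4i1, the common form of subunit 4 (607) in complex IV, and Atp5o, the stalk protein OSCP (549), in complex V. Ndufa4 is named for complex I and is now assigned to complex IV. From LSK to GMP it had log2 fold changes of 0.59 in WT (edgeR adjusted p = 0.124), which passed with the replicate block (0.57, edgeR adjusted p = 0.000948) and without WT GMP replicate 1 (edgeR adjusted p = 0.0328), and -0.02 in URE (edgeR adjusted p = 0.970). The isoforms known from muscle, lung and testis were at the bottom of complex IV, with Cox7a1 at 1.31, Cox4i2 at 1.74, Cox6a2 at 4.55 and Cox6b2 at 33.0.

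**Figure D1:**
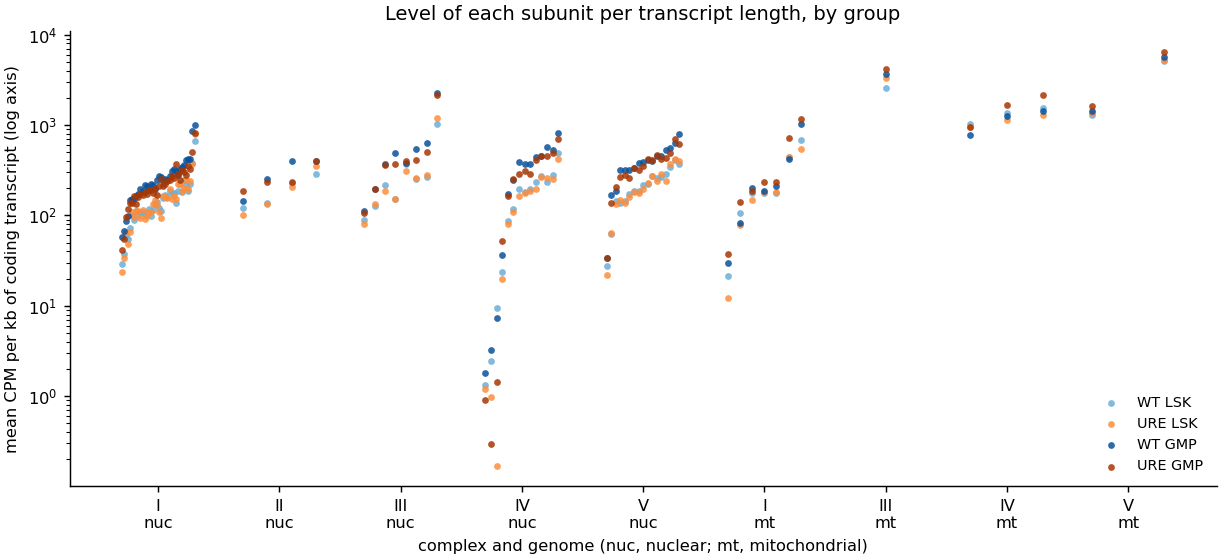
Mean CPM per kilobase of coding transcript (log axis) of each member in each of the 4 groups, by complex and by nuclear or mitochondrial genome, 1 point per gene and group. Most nuclear members lie within a narrow band, complex IV reaches down to Cox7a1 and Cox4i2, and mt-Atp6 and mt-Cytb lie highest.

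Nuclear subunits took a larger share of the counts in GMP than in LSK. The 87 nuclear members held 1.03%, 1.42%, 1.59% and 1.28% of all counts in WT LSK replicates 1 to 4 and 1.42%, 1.98%, 2.32% and 1.67% in WT GMP. In URE LSK they held 1.08%, 1.59%, 1.399% and 1.10%, and in URE GMP 1.35%, 1.62%, 1.89% and 1.54%. The ranges of LSK and GMP overlapped in each genotype, whereas within each replicate number the GMP library was the higher in 4 of 4 pairs, by 1.31 to 1.46 times in WT and by 1.02 to 1.4 times in URE. The 13 mitochondrial members showed no such order. They held 1.09% to 1.66% in WT LSK, 0.879% to 1.88% in WT GMP, 1.002% to 2.27% in URE LSK and 0.992% to 1.80% in URE GMP, and GMP was above LSK in 1 of 4 WT pairs and 2 of 4 URE pairs. Between genotypes, the nuclear share in URE GMP was 0.955, 0.817, 0.814 and 0.922 times that of the WT GMP library of the same number, and in LSK the ratio was above 1 in 2 pairs and below 1 in 2. The mitochondrial share in URE GMP was 1.13, 1.08, 0.957 and 1.69 times that of WT GMP, and in LSK its ratio was above 1 in 1 of 4 pairs. No test was run on these sums.

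**Figure D2:**
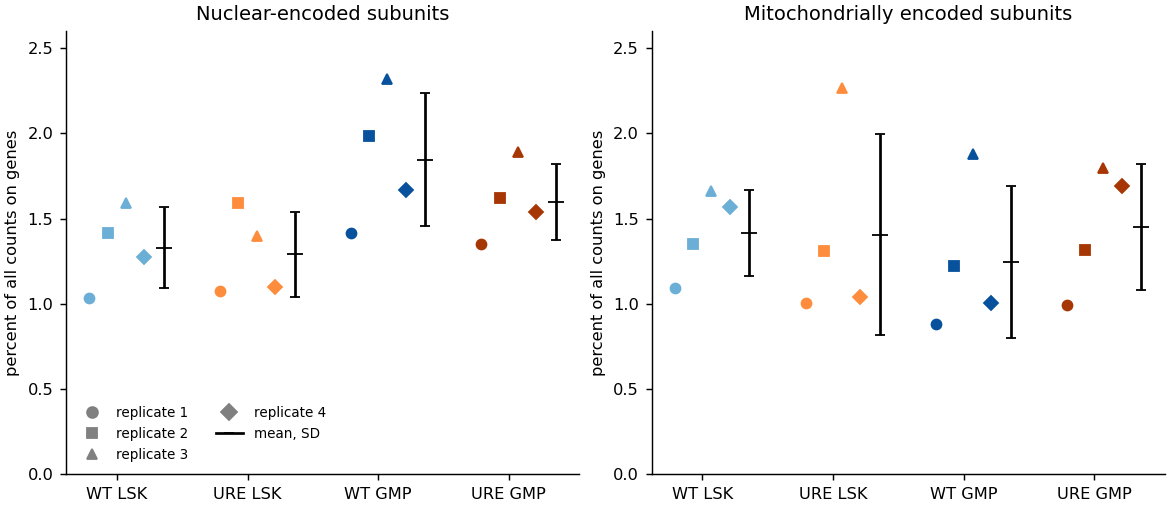
Share of all counts on genes (percent) held by the nuclear and the mitochondrial members in each library, by group, with replicate numbers marked. The nuclear share lies higher in GMP than in the same-numbered LSK library throughout, and in the nuclear share replicates 2 and 3 lie above replicates 1 and 4 in every group, which the mitochondrial share does not show in WT LSK or URE GMP.

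In WT mice, 44 of 93 members were higher in GMP than in LSK and none was lower, at an adjusted p under 0.05 (edgeR quasi-likelihood test, Benjamini-Hochberg over all genes). Over all genes tested, 12.8% were higher and 16.1% lower. With a fold above 1.5 as well, 40 members were called against 11.5% of all genes. All 44 were nuclear: 21 of 37 in complex I, 3 of 4 in complex II, 5 of 8 in complex III, 5 of 14 in complex IV and 10 of 17 in complex V. The median log2 fold change was 0.80, 0.63, 0.93, 0.92 and 0.84 over the nuclear members of complexes I to V, against -0.09 over all genes. Of the 80 nuclear members 79 had a positive log2 fold change, Cox6a2 being the exception. Every WT GMP library lay above every WT LSK library for 30 members, which held for 13.0% of all genes.

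The count of 44 depended on single libraries and on how replicates were treated. Without WT GMP replicates 2 or 3 it was 20 or 29, without WT LSK replicates 1, 2 or 4 it was 18, 25 or 17, and without any of the other 3 libraries it lay between 32 and 63. Over all genes, 1884 were higher with all libraries and 1331 to 2131 with a library left out. Same-numbered libraries deviated together, and 73 members were higher in a fit that blocked on the number, against 25.2% of all genes. Replicates 1 and 4 alone gave 21 members higher, where 1240 of 15067 genes were, and a nuclear median of 0.67. Replicates 2 and 3 alone gave 53 higher, where 1277 of 15290 genes were, and a nuclear median of 1.0, beside 0.82 in all libraries. Genes of proliferation also rose in WT GMP, with 15 of 20 called (median log2 fold change 0.90, 20 called with the replicate block) and summed levels of 7575 to 9750 CPM against 4354 to 5946 CPM in LSK. The 6 mast cell and basophil markers summed to 69.3 to 155 CPM in WT LSK and 713 to 1267 CPM in WT GMP, with 5 of 6 higher in GMP, and to 129.9 to 253 and 863 to 2378 CPM in URE. The 7 megakaryocyte markers summed to 385 to 702 CPM in WT LSK and 161 to 307 CPM in WT GMP, and to 558 to 1373 and 103 to 373 CPM in URE. The 12 erythroid markers summed to 404 to 1019 CPM in WT GMP and 249.9 to 1655 CPM in URE GMP, below the LSK sums given above in both genotypes, although 5 of the 12 were called higher in GMP in each and 2 and 1 lower. The 8 T and NK cell markers, at 124 to 306 CPM in WT LSK and 214 to 355 CPM in URE LSK, had higher sums in GMP. The part of these lists in the subunit results was not tested.

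In URE mice, 35 of 92 members were higher in GMP than in LSK and 1 was lower, Cox4i2, where 9.65% of all genes were higher and 12.7% lower. Cox4i2 passed the filter on low counts here only through the LSK libraries. With a fold above 1.5, 30 members were higher, against 9.20% of all genes. The higher members were 14 of 37 in complex I, 1 of 4 in complex II, 3 of 8 in complex III, 7 of 13 in complex IV and 10 of 17 in complex V, all nuclear, with medians of 0.56, 0.46, 0.71, 0.78 and 0.80 and an all-gene median of -0.09. Every URE GMP library lay above every URE LSK library for 35 members, against 11.5% of all genes. With the replicate block 65 members were higher, against 17.1% of all genes. Without URE GMP replicates 2, 3 or 4 the count of higher members was 12, 21 or 17, without URE LSK replicates 1, 3 or 4 it was 12, 22 or 14, and without URE GMP replicate 1 or URE LSK replicate 2 it was 37 or 51. Over all genes, 1389 were higher with all libraries and 937 to 1675 with a library left out. Replicates 1 and 4 alone gave 67 members higher, where 2180 of 14716 genes were, and a nuclear median of 0.91. Replicates 2 and 3 alone gave 2 higher, where 363 of 14715 genes were, and a nuclear median of 0.61, beside 0.71 in all. The proliferation genes had 3 of 20 higher in URE GMP (median 0.43, 10 with the replicate block), with 7103 to 9436 CPM in GMP and 4586 to 7569 CPM in LSK. Of the members, 30 were called higher in both genotypes, 68.2% of the WT calls and 85.7% of the URE calls. The same overlap over all genes is not given here, so these shares are not a result about the members. A call in one genotype and not in the other does not show a difference, which is tested as the interaction below.

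**Figure D3:**
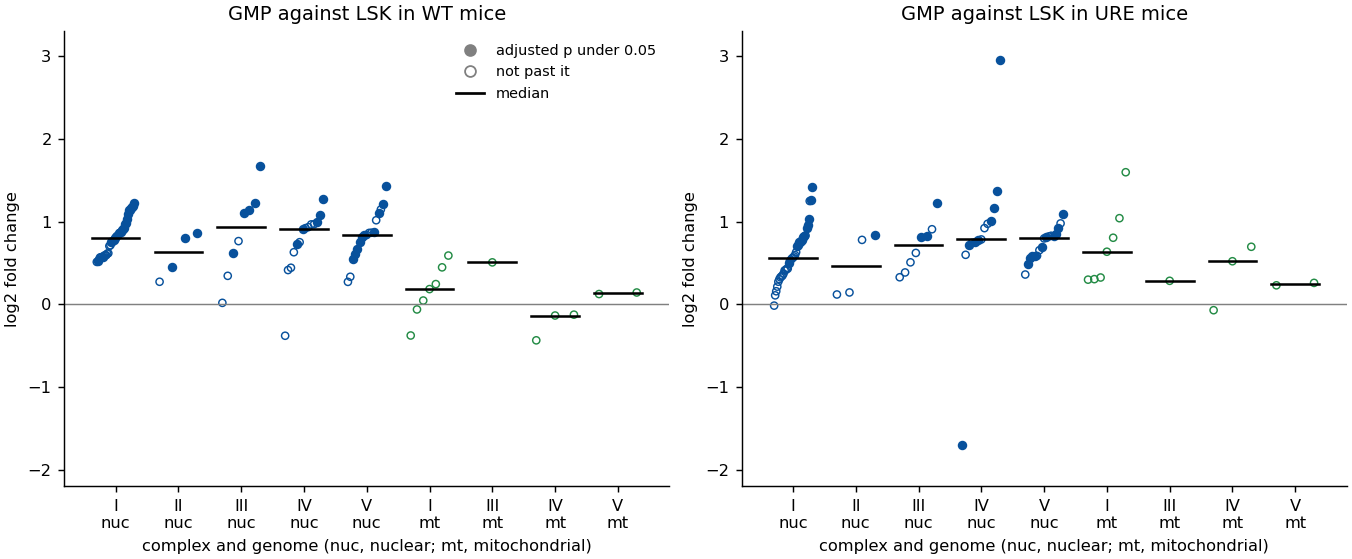
Log2 fold change of GMP over LSK for each member in WT and in URE mice, by complex and genome, filled where the adjusted p is under 0.05. Nuclear members of every complex lie mostly above 0 in both genotypes, and no mitochondrial member is filled.

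Uqcrq, a small subunit of complex III (ENSMUSG00000044894, chr11:53427922-53430831, minus strand), had the largest rise of the well-expressed members in WT. Its level was 54.3, 78.9, 101 and 70.9 CPM in WT LSK and 153, 248, 327 and 248 CPM in WT GMP, and 66.8, 99.01, 74.9 and 67.2 CPM in URE LSK and 159, 198, 209 and 173 CPM in URE GMP. The LSK and GMP libraries did not overlap in either genotype. The log2 fold change was 1.67 ± 0.27 (SE) in WT (edgeR adjusted p = 0.00199) and 1.22 ± 0.18 in URE (edgeR adjusted p = 0.00143). Ndufb5, an accessory subunit of the membrane arm of complex I (ENSMUSG00000027673, chr3:32736990-32751566, plus strand), had the lowest adjusted p of any member in WT. It was at 81.8, 81.7, 86.1 and 89.4 CPM in WT LSK and 193, 182, 190 and 215 CPM in WT GMP, and at 103, 104, 76.9 and 91.7 CPM in URE LSK and 280, 215, 194 and 239 CPM in URE GMP. Here too no LSK library reached the GMP range, and the log2 fold changes were 1.19 ± 0.13 (edgeR adjusted p = 2.7e-04) and 1.27 ± 0.17 (edgeR adjusted p = 9.9e-04). Ndufb5 shares 616 exonic bases with Mrpl47 on the opposite strand, and the libraries do not keep strand, so that reads there cannot be assigned to one of the genes. Mrpl47 itself had log2 fold changes of 0.63 and 0.54, neither of which passed the test. Of the named members, Uqcrq, Ndufb5 and Uqcrc1 kept their calls in both genotypes whichever library was left out. Uqcrc1 was at 541 ± 92.7 CPM (SD, n = 4) in WT LSK, 1206 ± 215 in WT GMP, 642 ± 84.9 in URE LSK and 1155 ± 124 in URE GMP.

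Atp5g1 encodes the membrane ring subunit c of ATP synthase and is one of several genes for the same mature protein. It was at 104, 193, 213 and 160 CPM in WT LSK, at 285, 538, 606 and 391 CPM in WT GMP, at 112, 256, 190 and 120 CPM in URE LSK and at 274, 407, 449 and 349 CPM in URE GMP. All GMP libraries were above all LSK libraries. The log2 fold change was 1.43 ± 0.29 in WT and 1.09 ± 0.28 in URE (edgeR adjusted p = 0.00615 and 0.0216), and in URE the call was lost without GMP replicate 2 or LSK replicate 1 or 4 (edgeR adjusted p 0.0514 to 0.0579). Atp5g3 rose by 0.83 in both genotypes, in URE without passing when GMP replicate 2 or 4 or LSK replicate 1 or 4 was left out (edgeR adjusted p 0.0505 to 0.0569). Atp5g2 had values of 0.27 and 0.59 that did not pass, and 36530 counts lay on Gm10175, which shares sequence with Atp5g2, itself at 7455. Cox5a, a nuclear subunit next to the catalytic core of complex IV, had log2 fold changes of 1.27 ± 0.24 in WT (edgeR adjusted p = 0.0044) and 0.75 ± 0.22 in URE (edgeR adjusted p = 0.0354). The call in URE was lost in 6 of 8 leave-outs, kept only without GMP replicate 1 or LSK replicate 2 (lost values of the adjusted p 0.0543 to 0.0982). Ndufa1, a membrane-arm subunit of complex I encoded on the X chromosome, had values of 1.22 ± 0.36 in WT and 1.42 ± 0.27 in URE. The WT call (edgeR adjusted p = 0.0322) was lost without GMP replicate 2 or 3 or LSK replicate 1, 2 or 4 (0.0636 to 0.0762), and the URE call (edgeR adjusted p = 0.00521) was kept in all 8.

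No mitochondrially encoded member passed the edgeR test in either genotype, with 0 of 13 at an unadjusted p under 0.05 in WT and 2 in URE, where 40.0% and 34.5% of all genes were. DESeq2 called mt-Nd1 in URE (adjusted p = 0.0346). Their median log2 fold change from LSK to GMP was 0.12 in WT and 0.32 in URE. mt-Cytb, the cytochrome b of complex III, was at 2333, 2544, 3505 and 3320 CPM in WT LSK and 2905, 3838, 5745 and 4252 CPM in WT GMP. The groups overlapped, and the log2 fold change of 0.51 ± 0.24 did not pass (edgeR adjusted p = 0.147) and passed with the replicate block (0.48, edgeR adjusted p = 0.00492). mt-Co1, the catalytic subunit of complex IV, was at 1196, 1734, 1854 and 1618 CPM in WT LSK and 723, 1434, 1884 and 725 CPM in WT GMP. It fell by 0.54 on the log2 scale with the block (edgeR adjusted p = 0.0325) and had a value of -0.44 without it (edgeR adjusted p = 0.366). In URE mice mt-Nd1, a membrane subunit of complex I, was at 331, 621, 810 and 330 CPM in LSK and 556, 1240, 1096 and 1543 CPM in GMP, with a log2 fold change of 1.04 ± 0.38 that did not pass without the block (edgeR adjusted p = 0.0788) and passed with it (1.05, edgeR adjusted p = 0.0157). It also passed without GMP replicate 1 (edgeR adjusted p = 0.0344) or LSK replicate 3 (edgeR adjusted p = 0.0377) and within replicates 1 and 4 (edgeR adjusted p = 0.0284). In the other genotype mt-Cytb (0.28 in URE), mt-Co1 (-0.07 in URE) and mt-Nd1 (0.59 in WT) did not pass. mt-Atp6, the most abundant member per length, had values of 0.12 ± 0.29 in WT and 0.26 ± 0.34 in URE. The other 9 mitochondrial members ran from -0.38 (mt-Nd4l) to 0.45 (mt-Nd3) in WT and from 0.23 (mt-Atp8) to 1.60 (mt-Nd3) in URE, and none of these passed under either fit. With a library left out, mt-Nd4 in URE passed in 1 of 8 fits, and its value lay between 0.39 and 1.02. The URE value of mt-Nd3 was 0.74 without GMP replicate 4, and it had 0 counts in URE LSK replicate 1. Within the replicate sets the mitochondrial median was -0.26 (1 and 4) and 0.46 (2 and 3) in WT and 0.76 and 0.20 in URE, so that it changed sign between sets in WT. Counts on nuclear copies limit these values: 231044 counts lay on Gm29216, which shares sequence with mt-Co1, and 11338 on Gm10222, which shares it with mt-Nd4l. Adding the counts of near-identical copies to their members left the counts of higher members at 44 and 35.

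Between genotypes, no member was higher in URE LSK or URE GMP, where 2.38% and 4.69% of all genes were. In LSK 1 member was lower, against 3.76% of all genes, and in GMP 2 were, against 3.68%. The nuclear members had a median log2 fold change of URE over WT of -0.09 in LSK and -0.20 in GMP, and the mitochondrial members of -0.14 and 0.27, with all-gene medians of 0.00 and 0.01. In GMP 16 of the 80 nuclear members and 12 of the 13 mitochondrial members had a positive value. In GMP the nuclear median was -0.01 for replicates 1 and 4 and -0.40 for replicates 2 and 3, and the mitochondrial one 0.69 and 0.03. In LSK the nuclear medians of these sets were -0.19 and 0.00, and the mitochondrial ones -0.53 and 0.08. At an unadjusted p under 0.05 there were 2 members in LSK and 9 in GMP, against 15.3% and 20.3% of all genes. DESeq2 called 2 and 4 lower, against 4.74% (961 of 20271) and 924 of 18477 of the genes it gave an adjusted p, and none higher.

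**Figure D4:**
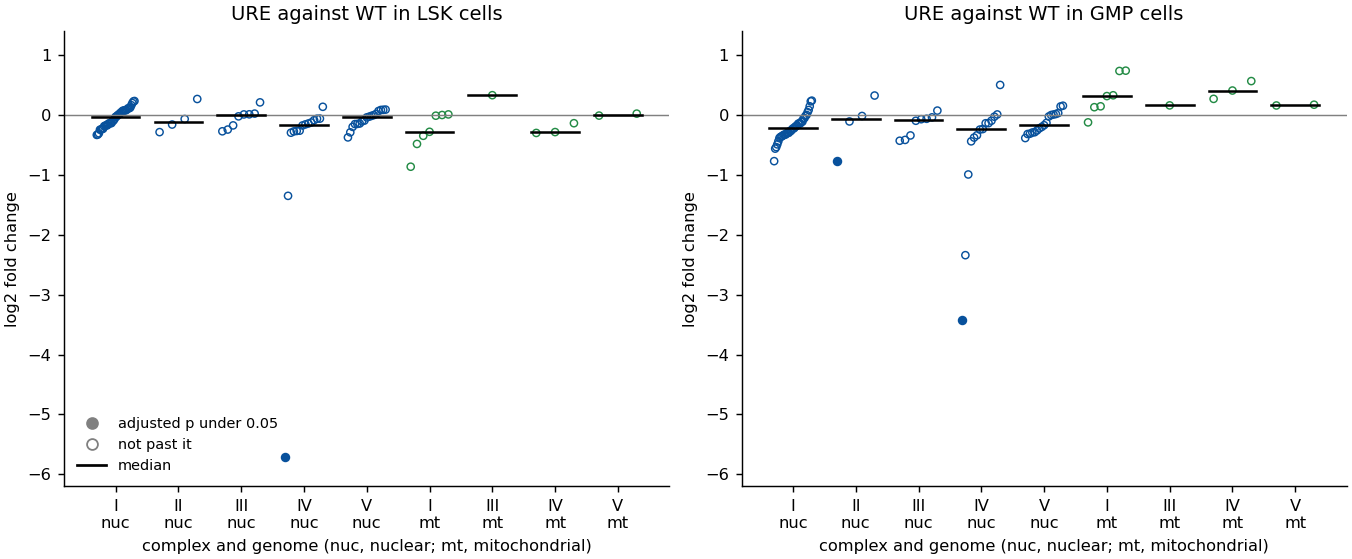
Log2 fold change of URE over WT for each member in LSK and in GMP, by complex and genome, filled where the adjusted p is under 0.05. The members farthest below 0 are Cox6a2 (-5.70), Cox4i2 (-1.35) and mt-Nd3 (-0.86) in LSK and Cox4i2 (-3.43), Cox6a2 (-2.34) and Cox7a1 (-0.99) in GMP, and in GMP the nuclear members lie mostly below 0 and the mitochondrial ones above it.

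Cox6a2, the heart and muscle form of subunit 6a of complex IV (ENSMUSG00000030785, chr7:128205435-128206387, minus strand), was low in WT cells and close to 0 in URE LSK. Its level was 4.42, 10.3, 9.69 and 1.01 CPM in WT LSK and 0.16, 0.27, 0.04 and 0 CPM in URE LSK, from 4, 8, 1 and 0 counts; the library at 0 allows up to 3 counts. In WT GMP it was 2.47, 4.15, 11 and 2.08 CPM and in URE GMP 0.53, 1.25, 1.54 and 0.62 CPM. The URE and WT libraries did not overlap in either cell type. The log2 fold change was -5.70 ± 0.98 in LSK (edgeR adjusted p = 0.00802), a size that rests on few counts, and -2.34 ± 0.64 in GMP (edgeR adjusted p = 0.0546), or -1.55 without WT GMP replicate 3. In LSK Cox6a2 passed the filter on low counts only through the WT libraries, with 138, 308, 248 and 25 counts. No conclusion is drawn from the LSK call. The LSK call held without each library in turn and was lost within replicates 1 and 4 alone. The GMP value passed with the replicate block (-2.16, edgeR adjusted p = 0.00386) and under DESeq2 (adjusted p = 0.00228). From LSK to GMP in URE mice Cox6a2 had a value of 2.95 ± 0.81 (edgeR adjusted p = 0.0279), a call lost without GMP replicate 3 or 4 or LSK replicate 1 or 3 (edgeR adjusted p 0.0533 to 0.0648). In this fit Cox6a2 passed the filter on low counts only through the GMP libraries, with 11, 24, 30 and 11 counts, so no conclusion is drawn from the call. Without GMP replicate 2 it was below the filter on low counts and was not tested. Cox6a2 shares 70 exonic bases with Itgad on the opposite strand. Itgad itself averaged 2.32 and 1.19 CPM in WT and URE LSK and 2.72 and 2.83 CPM in the GMP groups, with no call between genotypes. The ubiquitous form Cox6a1 was at 133 ± 33.5 and 113 ± 44.6 CPM in WT and URE LSK and 251 ± 94.0 and 232 ± 53.6 CPM in the GMP groups, with log2 fold changes between genotypes of -0.26 and -0.13 that did not pass.

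Cox4i2, the form of subunit 4 known from lung and from low oxygen (ENSMUSG00000009876, chr2:152754173-152765037, plus strand), had the lowest adjusted p of the members between genotypes in GMP. It was at 2.17, 2.70, 3.23 and 1.45 CPM in WT GMP and 0.24, 0.31, 0.21 and 0.11 CPM in URE GMP, from 5, 6, 4 and 2 counts. In WT LSK it was at 1.47, 2.38, 1.56 and 1.69 CPM and in URE LSK at 0.47, 1.09, 0.84 and 0.42 CPM. WT and URE did not overlap in either cell type. It fell by 3.43 ± 0.44 on the log2 scale in GMP (edgeR adjusted p = 0.00199) and its value in LSK was -1.35 ± 0.44 (edgeR adjusted p = 0.135), where DESeq2 gave an adjusted p of 0.0370. The GMP call held without each library in turn. In GMP Cox4i2 passed the filter on low counts only through the WT libraries, with 50, 65, 66 and 28 counts. No conclusion is drawn from the GMP call. From LSK to GMP Cox4i2 did not pass in WT (0.41 ± 0.33) and was lower in URE (-1.70 ± 0.53, edgeR adjusted p = 0.0455). The URE call was lost whichever of the 8 libraries was left out (edgeR adjusted p 0.0624 to 0.142). In this URE fit Cox4i2 passed the filter on low counts only through the LSK libraries, with 12, 33, 20 and 10 counts. No conclusion is drawn from the URE call. The common form Cox4i1 did not pass between genotypes, with 365 ± 55.8 and 311 ± 70.1 CPM in WT and URE LSK and 609 ± 181 and 524 ± 101 CPM in WT and URE GMP. The monocyte and dendritic cell markers given above fell in the same URE libraries, and their part in the Cox4i2 and Cox6a2 results was not tested.

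**Figure D5:**
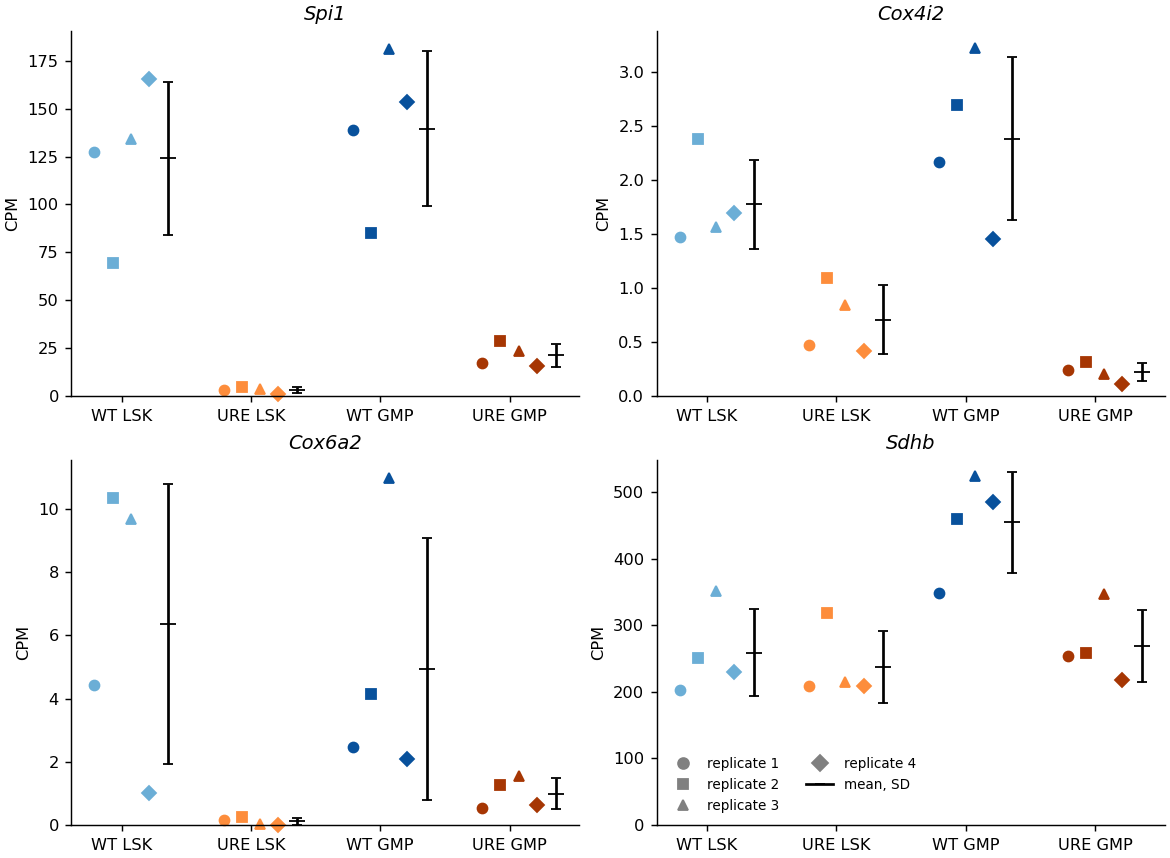
CPM of Spi1, Cox4i2, Cox6a2 and Sdhb in each library, by group, with replicate numbers marked, mean and SD beside them, and a scale of its own in each panel. Spi1, Cox4i2 and Cox6a2 lie lower in every URE library than in any WT library of the same cell type, and Sdhb does so in GMP but not in LSK.

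The tissue forms of other subunits did not pass between genotypes. Cox6b2, the testis form of subunit 6b, averaged 10.2 ± 3.04 CPM in WT LSK, 8.60 ± 4.57 in URE LSK, 15.9 ± 8.25 in WT GMP and 22.7 ± 7.90 in URE GMP. It rose from LSK to GMP in URE mice by 1.37 ± 0.42 (edgeR adjusted p = 0.0427), a call that only leaving out GMP replicate 1 or LSK replicate 2 kept (0.0620 to 0.0979 without the others), and its genotype values of -0.27 and 0.50 did not pass. Cox7a1, the heart form of subunit 7a, had 10, 20, 16 and 22 counts in WT GMP and 9, 12, 6 and 4 in URE GMP, or 0.80 ± 0.29 and 0.40 ± 0.17 CPM. The groups overlapped, and its genotype values were -0.99 ± 0.45 in GMP (edgeR adjusted p = 0.254) and -0.16 ± 0.52 in LSK (edgeR adjusted p = 0.967). The common form Cox7a2 rose from LSK to GMP by 1.08 ± 0.34 in WT and 1.17 ± 0.30 in URE (edgeR adjusted p = 0.0435 and 0.0207). The WT call was kept only without GMP replicate 1 (0.0503 to 0.102 otherwise), and the URE call was lost without GMP replicate 2 or LSK replicate 1 or 4 (0.0515 to 0.0567).

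Sdhb, the iron-sulfur protein of complex II (ENSMUSG00000009863, chr4:140961203-140979193, plus strand), was the well-expressed member that passed between genotypes. It was at 349, 461, 525 and 486 CPM in WT GMP and 253, 258, 347 and 218 CPM in URE GMP, without overlap, the highest URE library lying just below the lowest WT library. In LSK the values were 203, 250, 352 and 230 CPM in WT and 209, 319, 215 and 209 CPM in URE, which overlapped throughout. The GMP difference was -0.77 ± 0.20 on the log2 scale (edgeR adjusted p = 0.0471) and -0.16 ± 0.23 in LSK. The GMP call was close to its threshold: it was kept without URE GMP replicate 3 or WT GMP replicate 1 and lost without any of the other 6 libraries (edgeR adjusted p 0.105 to 0.137), while with the replicate block the adjusted p was 0.00880. From LSK to GMP Sdhb rose in WT by 0.80 ± 0.21 (edgeR adjusted p = 0.0188, lost without LSK replicate 1, 2 or 4 at 0.0503 to 0.0553), and its value in URE was 0.14 ± 0.20. The other complex II subunits gave values of their own. Sdha, the flavoprotein, had 0.46 in WT (edgeR adjusted p = 0.0423, kept only without WT GMP replicate 1 or 3, 0.0539 to 0.0947 otherwise) and 0.12 in URE. Sdhc, a membrane anchor, had 0.27 in WT and 0.84 in URE (edgeR adjusted p = 0.0163, lost at 0.0531 without URE GMP replicate 4), and Sdhd, the other anchor, had 0.86 in WT (edgeR adjusted p = 0.0265) and 0.78 in URE (edgeR adjusted p = 0.0718), which passed with the block (edgeR adjusted p = 0.00278) and under DESeq2 (adjusted p = 0.0470). Between genotypes in GMP, Sdha, Sdhc and Sdhd had values of -0.02, 0.33 and -0.11.

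With the replicate block, 6 members rather than 2 were lower in URE GMP, against 7.69% of all genes. The added members were Ndufb8 (edgeR adjusted p = 0.0219), Ndufa12 (0.0461) and Ndufs8 (0.0241), which are an accessory membrane-arm, an accessory and an iron-sulfur core subunit of complex I, and Cox6a2. The test of whether the genotype difference itself differed between LSK and GMP, or equally whether the rise from LSK to GMP differed between genotypes, called no member, against 1.22% of all genes. The lowest adjusted p was 0.107, for Cox4i2 (log2 -2.09 ± 0.59), 8 members had an unadjusted p under 0.05, against 11.6% of all genes, and DESeq2 called Cox4i2 (adjusted p = 0.0284), against 4.08%. With the block 4 members were called, against 6.57% of all genes: Cox6a2 (3.29, edgeR adjusted p = 0.0243) with a higher genotype value in GMP than in LSK, and Cox4i2 (-2.02, 0.0274), Ndufa10 (-0.52 without the block) and Ndufa12 (-0.73 without the block) with a lower one. The Cox6a2 value rests on 4, 8, 1 and 0 counts in URE LSK, and the Cox4i2 value on 5, 6, 4 and 2 in URE GMP. No conclusion is drawn from the values of Cox6a2 and Cox4i2. The median interaction value was -0.15 over the nuclear and 0.40 over the mitochondrial members. Replicates 1 and 4 alone gave 0.19 and 1.16, and replicates 2 and 3 alone -0.35 and -0.14, so that the sign of both medians changed between sets.

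Genes that work with the subunits were counted in the same fits, in which 12.8% of all genes were higher and 16.1% lower in GMP in WT, and 9.65% higher and 12.7% lower in URE. Of 17 further subunits, carriers and partners whose names fall outside the rule, 7 were higher in GMP in WT and 6 in URE. Cycs, the electron carrier cytochrome c, rose by 2.04 in WT and 1.46 in URE, and Cyc1, a cytochrome of complex III, by 1.11 and 0.63. Slc25a5, an ADP/ATP carrier, rose by 1.34 and 0.72 and was lower in URE than in WT GMP by 0.70 on the log2 scale (edgeR adjusted p = 0.0496), as was Slc25a4 by 0.54 (edgeR adjusted p = 0.0495). Both genotype calls lay just under the threshold, and 3.68% of all genes were lower in URE GMP. Values without single libraries are not given for these carriers. Ucp2, an uncoupling protein family carrier, was lower in URE LSK by 1.37 (edgeR adjusted p = 0.0165). Of 45 assembly factors, 9 were higher in GMP in WT, among them Cox10, a heme enzyme of complex IV assembly (1.0), and 3 in URE, among them Ndufaf3 (1.16), which is below the share over all genes. The 78 mitochondrial ribosomal protein genes, which serve the translation of the mitochondrial members, had 45 higher in GMP in WT (median 0.70) and 23 in URE (0.51). The 31 genes of mitochondrial DNA and RNA handling had 4 higher and 1 lower in WT, close to the share of all genes that were higher, and 1 lower in URE. The mitochondrial rRNAs had median values of 0.17 in WT and -0.29 in URE, which did not pass.

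Of 26 genes of the citrate cycle and pyruvate entry, 11 were higher and 1 lower in GMP in WT, and 5 higher and 1 lower in URE. Idh3a (1.09) and Mdh2 (1.08) were among those higher in WT, and Mpc1, a subunit of the mitochondrial pyruvate carrier, was higher in WT (1.13) and in URE (1.19). Idh2, the mitochondrial NADP-dependent isocitrate dehydrogenase, was lower in URE than in WT in LSK by 0.92 and in GMP by 0.67 (edgeR adjusted p = 0.0183 and 0.0482). Among the regulators of mitochondrial biogenesis, 2 of 17 were lower in GMP in WT, and 3 of 16 were lower and 1 higher in URE, where 16.1% and 12.7% of all genes were lower. Ppargc1a, the coactivator PGC-1alpha, was lower in GMP in both genotypes (edgeR adjusted p = 0.00105 in WT and 0.00216 in URE), at 4.10 to 6.65 CPM in WT LSK against 0 to 0.303 CPM in WT GMP and at 1.85 to 3.43 CPM in URE LSK against 0 to 0.225 CPM in URE GMP. In both fits Ppargc1a passed the filter on low counts only through the LSK libraries, so no conclusion is drawn from these calls. With GMP libraries at 0, the size of the change is not given. Hif1a, the oxygen-regulated transcription factor subunit, rose in GMP in URE by 1.44 and was higher in URE than in WT GMP by 1.75 (edgeR adjusted p = 0.00523), with an interaction of 1.78 (edgeR adjusted p = 0.0414). With the replicate block the genes higher in GMP in WT and in URE numbered 12 and 10 of the 17 further subunits and partners, 26 and 9 of the assembly factors, 70 and 47 of the ribosomal protein genes, 13 and 4 of the DNA and RNA genes and 17 and 13 of the citrate cycle genes, against 25.2% and 17.1% of all genes. For the DNA and RNA genes in URE that count is below the share over all genes.

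The replicate numbers also carried a pattern that cut across all groups. The nuclear members were higher in replicates 2 and 3 than in replicates 1 and 4 by a median of 0.55 on the log2 scale, with 75 of 80 positive, and the mitochondrial members by 0.73, with 12 of 13 positive. Over all genes the median was 0.02. The nuclear members are short transcripts, with a median coding transcript of 651 bases and 62 of 79 at most 1000 bases, against a median of 2151 bases over all genes. Genes of at most 1000 bases, members included, had a median difference of 0.21 between these replicate sets. From LSK to GMP the short genes other than members had a median log2 fold change of 0.17 in WT and 0.14 in URE, with 19.0% and 14.5% called higher. The part of transcript length in the subunit results was not tested.

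Promoters were read for 67 of the 87 nuclear members, as 72 windows of 300 bases from 250 before to 50 after the RefSeq start (GRCm38.p6). Exact matches were sought on both strands to GCGCATGC, the core bound by NRF-1, to CCGGAAGT, an ETS core of the GABP type, to GAGGAAGT, a core of the PU.1 type, and to CCAAT, bound by NF-Y. GCGCATGC was found in 13.9% of the members' windows and 2.71% of all 32851 windows, CCGGAAGT in 6.94% and 3.89%, GAGGAAGT in 4.17% and 3.20%, and CCAAT in 43.1% and 37.4%. No test was run on these shares. Of the 27 members with a window that were called higher in GMP in both genotypes, 5 held GCGCATGC, as did 5 of the other 40, and 8 held CCAAT (29.6%), as did 22 of the other 40 (55.0%), with no test made of either. The 250 bases before the start are shown for 5 members, picked after their values were seen: Sdhb, for its genotype difference, Cox6a1 and Atp5k, which hold overlapping NRF-1 cores on both strands, Atp5g1, with several CCAAT boxes, and Ndufb5, which kept its calls whichever library was left out and whose window holds none of the 4 motifs. Capitals mark the matches, read from 5′ to 3′ on the strand of the gene, and a match is a run of letters and no evidence of binding.
Sdhb, chr4:140961021-140961270, + strand: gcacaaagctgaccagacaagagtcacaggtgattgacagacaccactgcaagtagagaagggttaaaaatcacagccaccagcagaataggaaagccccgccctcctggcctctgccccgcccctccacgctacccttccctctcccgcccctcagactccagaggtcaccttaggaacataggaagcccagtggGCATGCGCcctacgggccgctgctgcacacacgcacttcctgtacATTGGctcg
Cox6a1, chr5:115348959-115349208, - strand: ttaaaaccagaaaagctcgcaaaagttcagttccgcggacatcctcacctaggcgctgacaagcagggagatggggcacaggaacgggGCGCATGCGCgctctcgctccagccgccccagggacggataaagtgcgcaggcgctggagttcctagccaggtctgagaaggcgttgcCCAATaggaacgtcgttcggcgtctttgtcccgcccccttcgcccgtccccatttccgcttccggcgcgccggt
Atp5k, chr5:108434400-108434649, - strand: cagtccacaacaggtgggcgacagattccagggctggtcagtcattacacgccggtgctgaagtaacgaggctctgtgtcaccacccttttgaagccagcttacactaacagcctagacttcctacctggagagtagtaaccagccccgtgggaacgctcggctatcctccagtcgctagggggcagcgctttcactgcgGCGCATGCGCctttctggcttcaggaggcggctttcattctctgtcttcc
Atp5g1, chr11:96075632-96075881, - strand: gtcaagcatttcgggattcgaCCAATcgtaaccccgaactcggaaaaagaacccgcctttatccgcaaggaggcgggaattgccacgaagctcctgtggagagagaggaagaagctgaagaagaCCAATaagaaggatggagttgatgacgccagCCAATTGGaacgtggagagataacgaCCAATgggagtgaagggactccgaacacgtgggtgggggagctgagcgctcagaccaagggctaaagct
Ndufb5, chr3:32736813-32737062, + strand: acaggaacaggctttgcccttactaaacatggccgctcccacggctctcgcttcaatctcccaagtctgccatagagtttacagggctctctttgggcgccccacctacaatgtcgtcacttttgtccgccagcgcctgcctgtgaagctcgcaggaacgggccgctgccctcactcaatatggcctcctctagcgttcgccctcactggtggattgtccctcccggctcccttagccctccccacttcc
Sdhb holds GCGCATGC on the reverse strand and CCAAT on the reverse strand close to the start. The pair of GCGCATGC matches in Cox6a1 and in Atp5k overlap on opposite strands. Atp5k, a small membrane subunit of ATP synthase, had log2 fold changes from LSK to GMP of 1.21 in WT and 0.82 in URE, Cox6a1 of 0.91 and 1.0, and Ndufb5, without a match, of 1.19 and 1.27.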

How the data were processed

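RNA was sequenced as unstranded paired-end libraries without molecular identifiers, and the authors quantified it with Salmon on GRCm38 and deposited estimated counts per gene, unnormalized, in 1 table. The annotation release is not given in the sources used here. Counts were rounded to whole numbers and tested with edgeR 4.0.16 (limma 3.58.1, R 4.3.3): TMM, filterByExpr, quasi-likelihood test, Benjamini-Hochberg over all genes tested, a separate fit of 8 libraries per comparison and 1 fit of 16 for the interaction. Calls used an adjusted p under 0.05, and also a fold above 1.5. Standard errors come from the log2 fold change and its F. Alternatives were DESeq2 1.42.0, other scalings and filters, a replicate block, thinning, summed near-identical copies (at least 25% of 31-base words shared) and leaving out each library. The tests were checked on simulated data with 1 common spread and no replicate effect, and the pass rule covered 8-fold changes only. That check says nothing about smaller changes or about replicates that deviate together. The members and lists were chosen with earlier results of these data known. Same-numbered libraries deviated together in every pair (r of 0.28 to 0.58 between genotypes in LSK, 0.24 to 0.55 in GMP, 0.42 to 0.70 between stages in WT and 0.38 to 0.53 in URE), against -0.51 to 0.39, -0.48 to 0.40, -0.59 to 0.29 and -0.45 to 0.31 between different numbers. Between genotypes URE replicate 4 correlated best with WT replicate 1 in both cell types. On these correlations alone the numbers were taken as pairs; no source used here says what a number marks. Named members were the mitochondrial ones, the 4 called members per comparison and direction with the largest change at an average of at least 3 log2 CPM, the highest of each complex and the isoform families, and 3 genes per further list. Depth limits low genes, and counting error excludes amplification. Promoters are RefSeq windows, and coordinates are those of GENCODE M21.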

Additional observations from a re-analysis of the deposited data

Results flagged for a closer look

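In 10 of 172 groups of 4 libraries, 1 library lay far from the others by Dixon's ratio at the 95% level, which chance gives in about 1 in 20 groups. In URE LSK replicate 3, mt-Cytb was at 5725 CPM, so that mitochondrial complex III held 0.668% of counts, and mt-Nd5 was at 586 CPM. In WT LSK, mitochondrial complex IV held 0.339% in replicate 1, the lowest, mt-Nd4 reached 705 CPM in replicate 4 and Cox6b2 was at 5.67 CPM in replicate 1. In URE GMP replicate 1, mt-Nd2 was at 97.0 CPM and mt-Nd5 at 245 CPM, the lowest of their groups, and Uqcrc1 was lowest in URE GMP replicate 4 at 970 CPM. Sdhb was highest in URE LSK replicate 2 at 319 CPM.

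Counts also lay on genes that share sequence with members and are not members themselves. Over all 16 libraries there were 36530 on Gm10175 (Atp5g2), 8554 on Smim27 (Ndufb6), 231044 on Gm29216 (mt-Co1), 1513 on Gm28438 (mt-Nd3) and 11338 on Gm10222 (mt-Nd4l).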

How the results depend on the processing

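Counts of members called and some medians moved with the processing. Without each library in turn the nuclear median log2 fold change of URE over WT lay between -0.25 and 0.07 in LSK and between -0.37 and -0.05 in GMP, the mitochondrial one in LSK between -0.38 and 0.02, the mitochondrial median of GMP over LSK in WT between -0.15 and 0.31, and the nuclear interaction median between -0.30 and 0.05. Members higher in GMP numbered 44 in WT and 35 in URE, and 73 and 65 with the replicate block. With replicates 1 and 4 only they numbered 21 and 67, and with replicates 2 and 3 only 53 and 2. Without each library in turn they ranged from 17 to 63 in WT and from 12 to 51 in URE. Over all genes these counts ranged from 1331 to 2131 in WT and from 937 to 1675 in URE. With the block 1 member was lower in WT GMP than LSK, as with replicates 1 and 4 only. The 1 lower member in URE, Cox4i2, became 0 under DESeq2, RLE size factors, no filter, a filter of 1 CPM in 4 libraries, thinning, either replicate set and every left-out library. Members lower in URE LSK were 1, 2 under DESeq2 and 0 with replicates 1 and 4 only. Members lower in URE GMP were 2, and 4 under DESeq2, 6 with the block, 1 under the 1 CPM filter, thinning or replicates 1 and 4 only, 0 with replicates 2 and 3 only, and 1 to 3 without each library. For the interaction DESeq2 called 1 lower member, and the block 1 higher and 3 lower. The block also gave calls from LSK to GMP in URE to Ndufb8 (0.44, edgeR adjusted p = 0.0354) and Ndufa10 (0.37, edgeR adjusted p = 0.0303), and changed no other call of a member named here beyond those given with the results. Without the 5 most abundant nuclear genes in the total, the mean share of nuclear members was 1.97% in WT GMP and 1.78% in URE GMP (1.85% and 1.60% of all counts), that of complex II 0.155% and 0.138% (0.145% and 0.124%) and that of complex V 0.607% and 0.583% (0.568% and 0.523%). Single genes were followed for Spi1, the mitochondrial members and a fixed list of nuclear members per comparison. Of these values, none called in either setting changed sign, and 109 called in neither did. For the same genes, 45 calls were lost and 18 gained over the settings other than leaving out a library, and 95 lost and 5 gained with a library left out. Depth limits Cox6a2, Cox4i2 and Cox7a1. The causes of these shifts were not tested.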
